A study of Mus musculus with 3 samples.

Results

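The genes described here are the Wnt ligands, their Frizzled and Lrp receptors and the secreted inhibitors of the Sfrp and Dkk families, as measured in 3 cultures of mouse OP9 stromal cells. The members were all probes whose symbol in the platform's gene table is Wnt, Fzd, Sfrp or Dkk with a number, or Frzb, Lrp5 or Lrp6. This gave 39 of the 23473 probes on the array, 1 probe for each of 39 genes: 19 ligands, 9 Frizzled receptors, 2 co-receptors, 5 genes of the Sfrp family and 4 of the Dkk family. The cultures were OP9-DL, OP9 cells that express green fluorescent protein (GFP) and the Notch ligand Delta-like 1; OP9-GFP, OP9 cells that express GFP; and OP9, the parental cells, labelled as control. All 3 come from the OP9 line of newborn mouse calvaria of the background B6C3Fe-a/a with the genotype Csf1op/Csf1op, and all received no treatment. The sources used here do not say how the genes were brought into the cells or whether the lines are clones. Each line was measured on 1 array, so the differences below have no replicate check, no test was possible, and the transgenes cannot be told apart from whatever else differed between the cultures.

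Wnt proteins are secreted lipid-modified ligands that bind a Frizzled receptor at the cell surface. With Lrp5 or Lrp6 as co-receptor the signal stabilises beta-catenin, which enters the nucleus and acts with TCF and LEF factors. Other ligand and receptor combinations act without beta-catenin, through cell polarity or calcium. Sfrp proteins carry a Frizzled-like domain and bind Wnt ligands outside the cell, while Dkk1 blocks Lrp5 and Lrp6. In stromal cells the pathway is known for favouring bone over fat formation, and OP9 cells are known to form fat readily.

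All values are the deposited probe intensity, scaled so that the median probe of each array reads 20. Values were present for 21920 (OP9-DL), 21941 (OP9-GFP) and 21989 (OP9) probes. A probe was compared if it had a value on all 3 arrays and a mean log2 intensity at or above the 25th percentile of such probes, an intensity of 6.13. That limit left 15581 probes of the array, 66.4%, and 20 of the 39 members, 51.3%. A difference of 2-fold or more was counted, which is a size and not a test. Dll1, the gene for Delta-like 1, read 333.3 in OP9-DL, 20.5 in OP9-GFP and 14.0 in OP9 cells, highest in the line labelled with it.

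The other members were dim or had blanks. There were 10 with a value on all 3 arrays below the limit, with single readings from 1.1 to 6.6, and 9 without a value on 1 or 2 arrays. Blanks on at least 1 array were found for 23.1% of the members and for 11.5% of all probes. Among ligands, Wnt2b, Wnt4, Wnt7a, Wnt8b, Wnt9a and Wnt10a were dim. Wnt1, Wnt3a and Wnt16 had a value on 2 arrays, and Wnt7b and Wnt8a on the OP9-DL array only, at 1.5 and 1.3. Of the receptors, Fzd9 was dim, Fzd3 had no value on the OP9-DL array and Fzd6 had 1.4 on that array alone. Dkk2, Sfrp5 and Frzb were dim, and Dkk4 read 1.1 in OP9-GFP and was blank in both others. The blank members other than Sfrp2 read at most 3.7 on the arrays where they had a value. The lowest value of each array was 1.1 (OP9-DL), 1.0 (OP9-GFP) and 1.0 (OP9). Sfrp2 read 13.9 on the OP9-DL array, so a blank on 1 array did not always stand beside low values. Wnt10a and Wnt9a lay just below the limit, with mean log2 intensities of 2.49 and 2.47, and Fzd5 just above it, with 2.76.

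**Figure D1:**
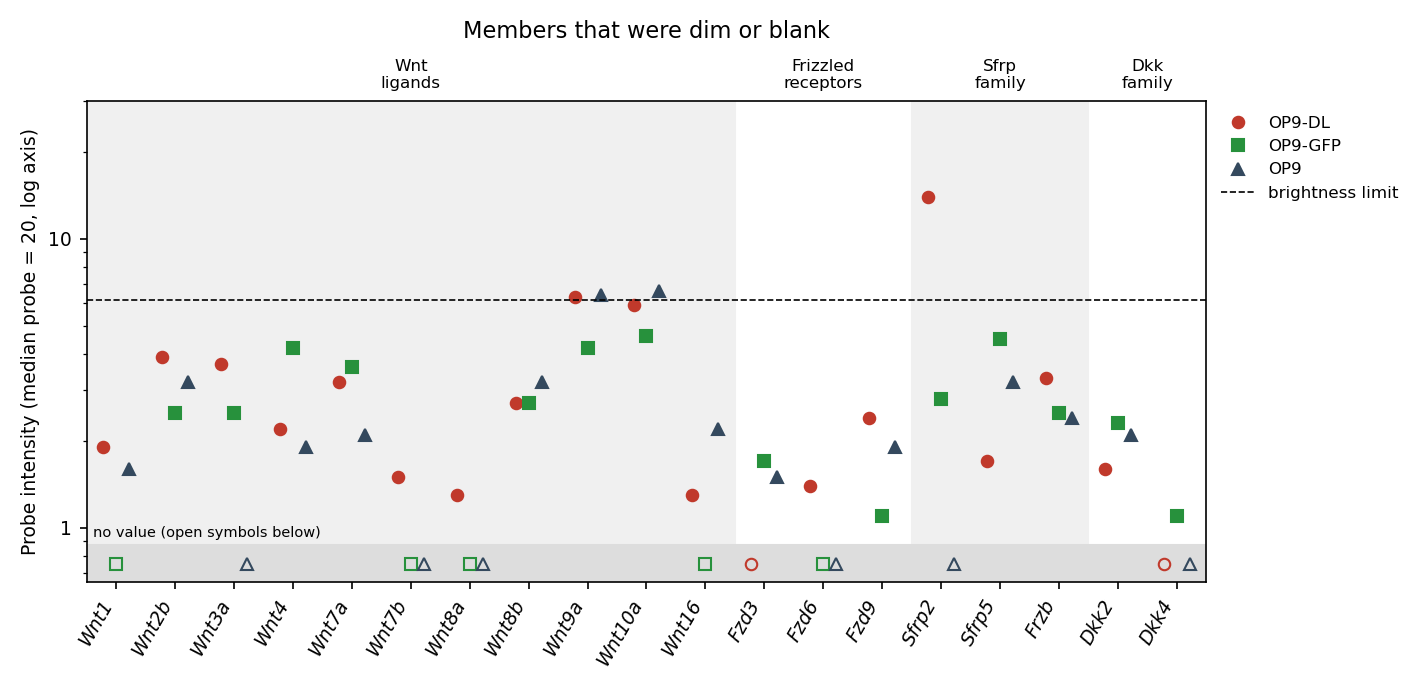
Intensity (log axis) of the 19 members that were not compared, by array; open symbols in the grey strip had no value. Sfrp2 on the OP9-DL array, at 13.9, stands above the brightness limit of 6.13, while the other readings are close to it or below it.

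Sfrp2, a secreted Wnt modulator of mesenchymal cells, differed most among the members with a blank. It read 13.9 (OP9-DL) and 2.8 (OP9-GFP) and was blank on the OP9 array. The probe was thus above the limit in OP9-DL cells alone. Because the OP9-GFP reading lies below the limit, the ratio of 4.96 between them gives a direction and no firm fold, and no fold against the OP9 array can be had. The promoter of Sfrp2, shown because this member had the highest reading among those not compared, runs from 250 bases before to 50 bases after the gene's start in RefSeq (build GRCm38.p6), and each CG is in capitals.
Sfrp2, chr3:83766071-83766370 (+): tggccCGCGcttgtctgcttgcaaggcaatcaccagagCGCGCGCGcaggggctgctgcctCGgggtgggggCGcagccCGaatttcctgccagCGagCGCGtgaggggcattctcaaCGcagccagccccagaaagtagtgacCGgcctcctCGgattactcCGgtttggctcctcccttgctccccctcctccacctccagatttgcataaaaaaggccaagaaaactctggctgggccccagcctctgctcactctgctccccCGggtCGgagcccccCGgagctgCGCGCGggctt
It holds 22 CG dinucleotides in 300 bases.

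The 8 comparable ligands stayed within 2-fold in all 3 comparisons. Wnt2, a ligand of the beta-catenin branch, came closest to the threshold, with an intensity of 16.7 in OP9-DL, 9.2 in OP9-GFP and 8.6 in OP9 cells. Its log2 difference was 0.86 for OP9-DL against OP9-GFP and 0.96 for OP9-DL against OP9. The OP9-DL array stood above both others, which lay close together. Wnt3, which also signals through beta-catenin, read 16.4 (OP9-DL), 18.3 (OP9-GFP) and 12.3 (OP9), so the parental array was the lowest. For Wnt10b, known for favouring bone and restraining fat formation in mice, the readings were 7.6, 6.9 and 9.4 in the same order, near the limit on every array.

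Wnt5a, the best-known ligand of the branches without beta-catenin, read 17.7 in OP9-DL, 13.5 in OP9-GFP and 14.4 in OP9 cells. Its close relative Wnt5b went the other way between the GFP lines, with 33.1 (OP9-DL), 44.4 (OP9-GFP) and 35.4 (OP9), and in OP9-DL against OP9-GFP the log2 difference was 0.39 for Wnt5a and -0.42 for Wnt5b. Wnt11, a ligand of cell polarity and convergent movements, had 30.4 (OP9-DL), 37.8 (OP9-GFP) and 39.0 (OP9). These differences were small beside the 2-fold threshold. Wnt6 gave 16.3 (OP9-DL), 14.9 (OP9-GFP) and 14.5 (OP9). Wnt9b, a ligand needed for kidney formation, gave 18.4 (OP9-DL), 18.9 (OP9-GFP) and 20.9 (OP9). Of the 8 ligands 4 were above 0 and 4 below 0 in OP9-DL against OP9-GFP, with a median log2 difference of 0.05, against a median of -0.01 over all compared probes.

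**Figure D2:**
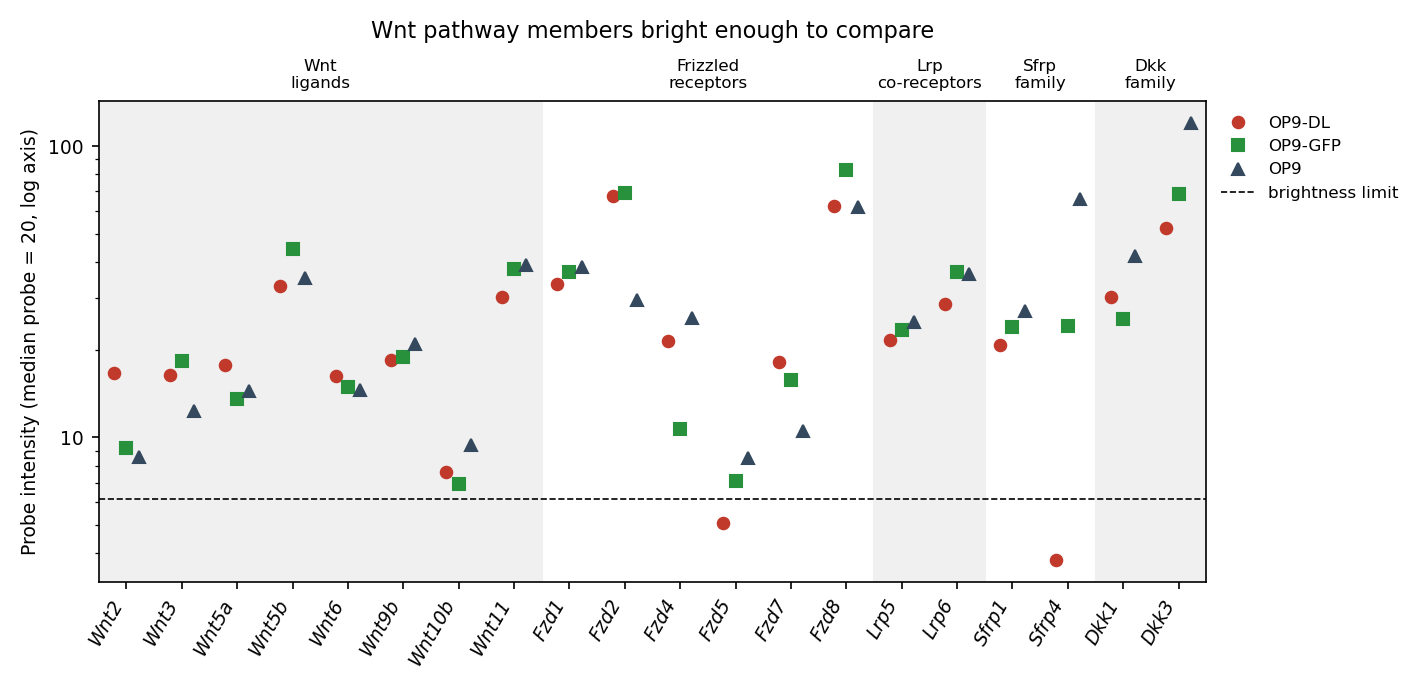
Intensity (log axis) of the 20 compared members on the OP9-DL, OP9-GFP and OP9 arrays, grouped by role; the dashed line is the brightness limit. Fzd4 is lowest on the OP9-GFP array, Fzd2 on the OP9 array and Sfrp4 on the OP9-DL array. Each of the 8 ligands stays within 2-fold, as most compared probes do.

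Among the 6 comparable Frizzled receptors, Fzd4 and Fzd2 differed by 2-fold or more between some arrays. Fzd4, a receptor for Wnt ligands and for the unrelated ligand Norrin, read 21.4 in OP9-DL, 10.7 in OP9-GFP and 25.8 in OP9 cells. The OP9-GFP array was thus lower than both others. The log2 difference was 1.00 for OP9-DL against OP9-GFP, exactly on the threshold, and -1.27 for OP9-GFP against OP9, a 2.41-fold lower reading. Values are given to 1 decimal, so a call on the threshold can turn with the last digit. Under quantile scaling the first difference was 0.998, under lowess scaling 0.978 and with a constant of 2 added before log2 0.882, all below the threshold. OP9-DL against OP9 was -0.27, within 2-fold. The Fzd4 promoter, shown because this receptor is the member for which the OP9-GFP array stood apart, follows with each CG in capitals.
Fzd4, chr7:89404116-89404415 (+): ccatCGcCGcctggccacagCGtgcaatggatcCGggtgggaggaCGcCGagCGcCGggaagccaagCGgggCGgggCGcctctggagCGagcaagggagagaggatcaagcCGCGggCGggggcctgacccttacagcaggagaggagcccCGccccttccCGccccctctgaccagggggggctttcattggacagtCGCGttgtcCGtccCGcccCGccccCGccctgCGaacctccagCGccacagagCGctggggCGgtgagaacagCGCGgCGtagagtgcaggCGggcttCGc
It holds 32 CG dinucleotides.

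Fzd2, which can act as a receptor of Wnt5a, had 67.6 in OP9-DL, 69.0 in OP9-GFP and 29.6 in OP9 cells. It read alike on the arrays of both lines with GFP, and 2.28-fold (OP9-DL) and 2.33-fold (OP9-GFP) higher there than on the OP9 array. Fzd7, of the same receptor subfamily, had 18.1 (OP9-DL), 15.7 (OP9-GFP) and 10.5 (OP9), lowest on the OP9 array too but within 2-fold. The last receptor of that subfamily, Fzd1, showed little difference, at 33.6 (OP9-DL), 37.0 (OP9-GFP) and 38.5 (OP9). Related receptor genes can share sequence with a probe, and the probe sequences were not used here. Fzd8 read 62.3 (OP9-DL), 82.7 (OP9-GFP) and 61.8 (OP9). Fzd5 read 5.1 (OP9-DL), 7.1 (OP9-GFP) and 8.5 (OP9), with the OP9-DL reading below the limit.

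Both co-receptors were measured on all arrays and stayed within 2-fold. Lrp5, which in humans and mice sets bone mass, read 21.6 in OP9-DL, 23.3 in OP9-GFP and 24.9 in OP9 cells. Lrp6 read 28.8 (OP9-DL), 37.0 (OP9-GFP) and 36.4 (OP9). The OP9-DL array was the lowest for both, by log2 differences of -0.11 and -0.36 against OP9-GFP.

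Sfrp4, a secreted inhibitor with a role in bone, showed the largest differences among the 20 compared members, in each of the 3 comparisons. Its intensity was 3.8 in OP9-DL, 24.2 in OP9-GFP and 65.8 in OP9 cells. All 3 readings lay more than 2-fold from each other, with OP9-DL lowest and OP9 highest. The log2 difference was -2.67 for OP9-DL against OP9-GFP, 6.37-fold lower, -1.44 for OP9-GFP against OP9 and -4.11 for OP9-DL against OP9. The OP9-DL reading lies below the brightness limit, so the folds with it are uncertain in size: with a constant of 2 added they were -2.18 against OP9-GFP and -3.55 against OP9. Sfrp1, another inhibitor of the family, read 20.8 (OP9-DL), 24.0 (OP9-GFP) and 27.1 (OP9), in the same order of arrays but with a log2 difference of -0.21 for OP9-DL against OP9-GFP. Of the dim members, Sfrp5 read 1.7 (OP9-DL), 4.5 (OP9-GFP) and 3.2 (OP9), and Frzb, also called Sfrp3, read 3.3 (OP9-DL), 2.5 (OP9-GFP) and 2.4 (OP9). The Sfrp genes thus did not go one way: between the GFP lines Sfrp4 was lower in OP9-DL, Sfrp2 read higher there and Sfrp1 lay within 2-fold.

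Dkk3, a divergent Dkk protein that is not known as a blocker of Lrp5 and Lrp6, read 52.2 in OP9-DL, 68.3 in OP9-GFP and 120.4 in OP9 cells. It was 2.31-fold lower in OP9-DL than in OP9, while OP9-GFP against OP9, at -0.82 on the log2 scale, missed the threshold. Dkk1, the inhibitor of Lrp5 and Lrp6, read 30.3 (OP9-DL), 25.5 (OP9-GFP) and 42.0 (OP9) and stayed within 2-fold. Both Dkk genes, like Sfrp1 and Sfrp4, were highest on the OP9 array, and read lower on the arrays of both lines with GFP. The OP9 array was also the highest for Fzd1, Fzd4, Fzd5, Lrp5, Wnt9b, Wnt10b and Wnt11, so this was not particular to the inhibitors. Dkk3 and Sfrp4 were lower by 2-fold or more in OP9-DL against OP9, where 6.92% of all compared probes were lower. The grouping of the inhibitors was made after the values were seen, and the share of all probes highest on the OP9 array was not counted. These comparisons share the OP9 array, so a high reading of that array alone would lower both.

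**Figure D3:**
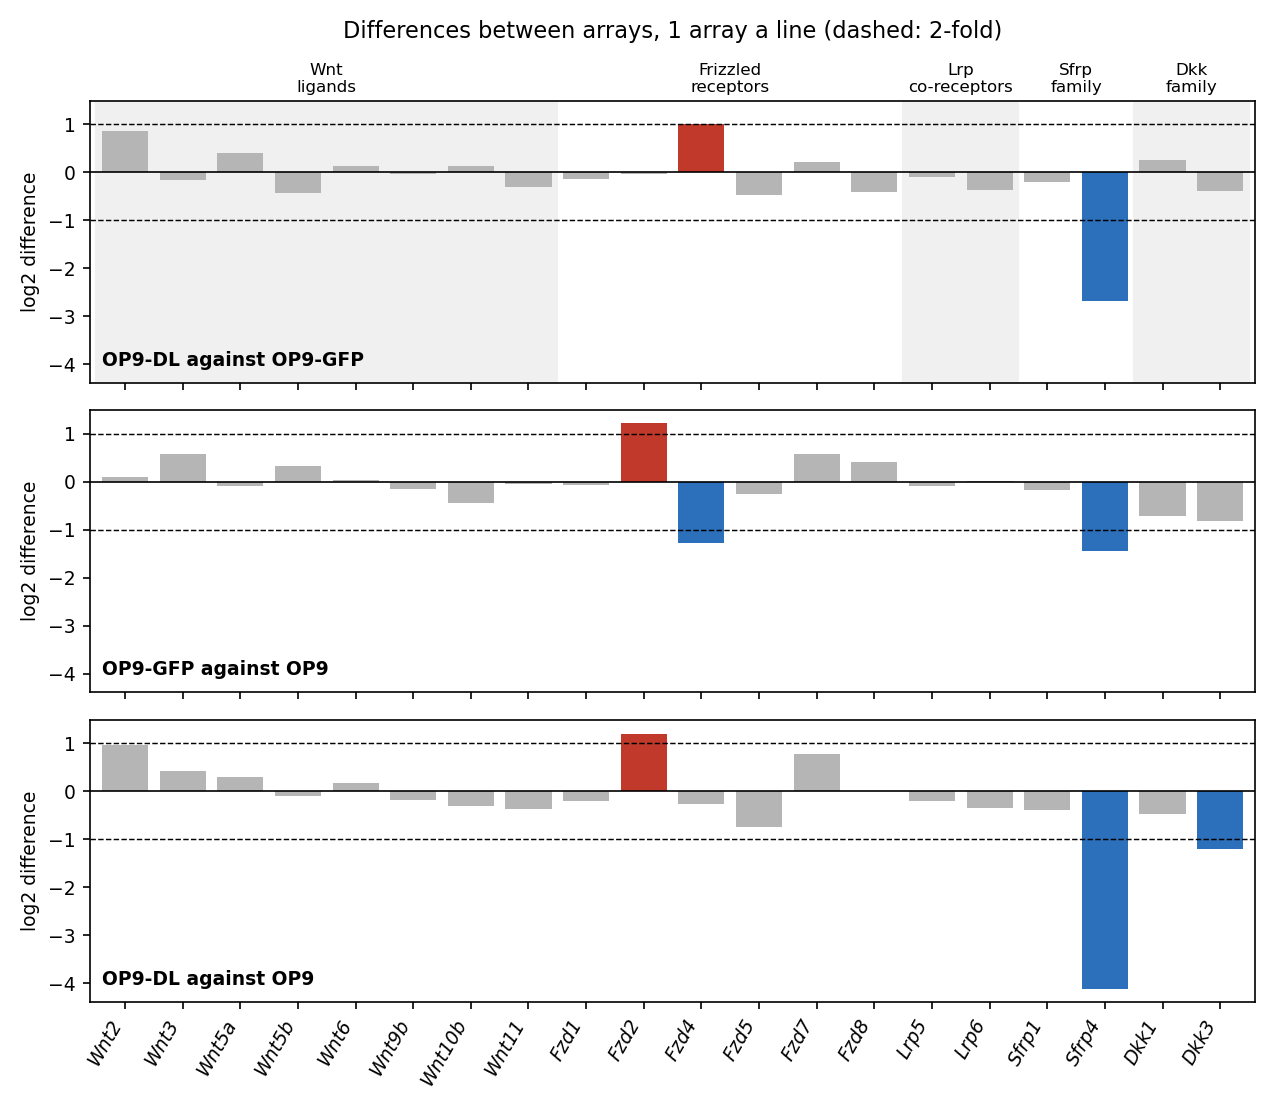
Log2 difference of each of the 20 compared members in the 3 comparisons, grouped by role, with dashed lines at 2-fold; coloured bars reach it, red higher and blue lower. Sfrp4 is lower in all 3 panels, and Fzd4 reaches the line upward in the first panel and passes it downward in the second.

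Counted together, 2 of the 20 compared members differed by 2-fold or more in OP9-DL against OP9-GFP, Fzd4 higher and Sfrp4 lower, against 5.04% of all compared probes. Each member is 5% of the 20, so the count is 1 probe above that share, and with quantile scaling, lowess scaling or an added constant only Sfrp4 was left. In OP9-GFP against OP9, 3 members differed, Fzd2 higher and Fzd4 and Sfrp4 lower, against 11.6% of all compared probes. In OP9-DL against OP9, 3 members differed against 11.2% of all compared probes, Fzd2 higher (4.33% of all) and Dkk3 and Sfrp4 lower (6.92% of all). Among the 8690 probes in the members' own range of mean brightness these shares were 5.83%, 11.3% and 11.9%. An array stood 2-fold or more to the same side of both others for Sfrp4 in OP9-DL (low), for Fzd4 in OP9-GFP (low), and for Fzd2 (low) and Sfrp4 (high) in OP9, which was so for 2.44%, 1.67% and 6.18% of all compared probes. The number of members past 2-fold was thus near the background in all 3 comparisons. The median log2 difference over the 20 members was -0.12 for OP9-DL against OP9-GFP, -0.08 for OP9-GFP against OP9 and -0.20 for OP9-DL against OP9, beside -0.01, 0.02 and 0.02 over all compared probes. The comparisons share arrays pairwise and are not independent.

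**Figure D4:**
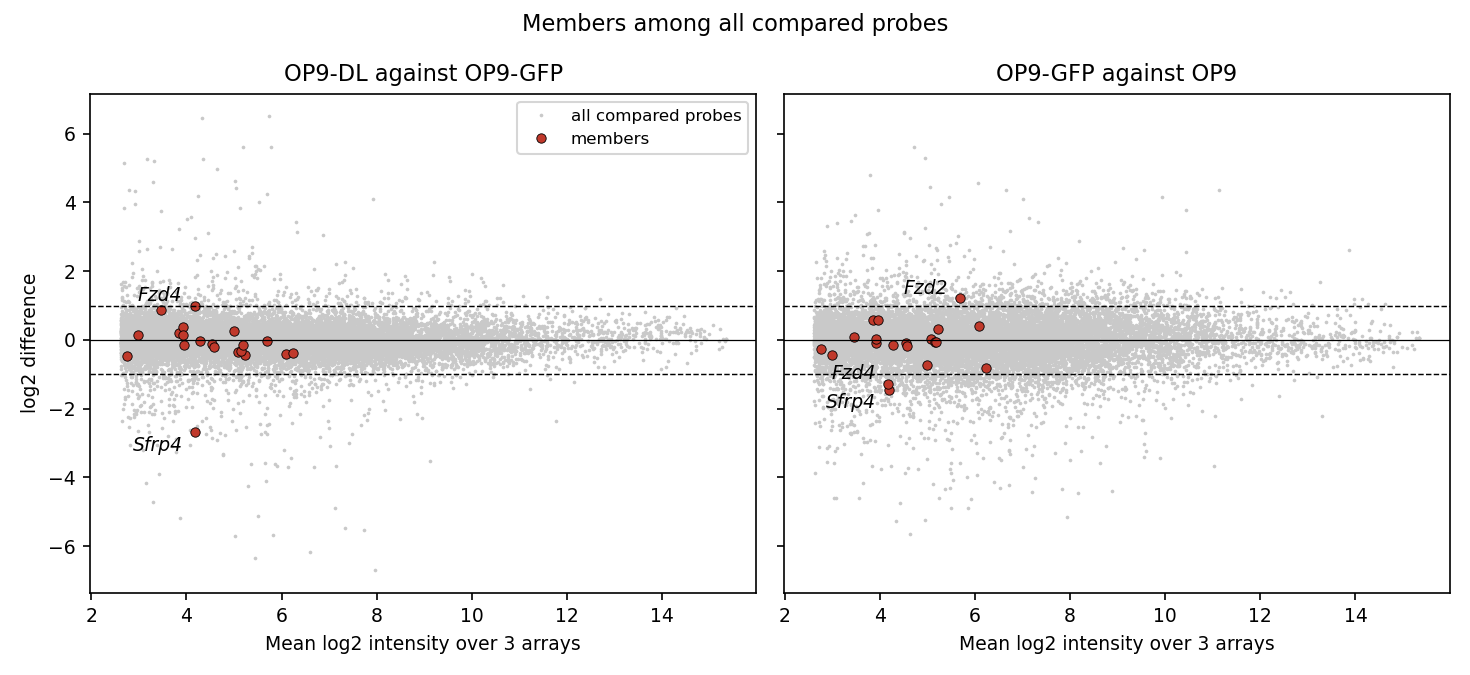
Log2 difference against mean log2 intensity for 15581 compared probes (grey) and the 20 compared members (red), for OP9-DL against OP9-GFP and OP9-GFP against OP9; dashed lines mark 2-fold. The members lie in the dimmer part of the array, with mean log2 intensities from 2.76 to 6.24, and all but the named genes lie between the lines.

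The genes that carry the signal onward were read from 7 lists with 142 genes, of which 104 probes could be compared. In OP9-DL against OP9-GFP 1 probe was 2-fold or more higher and 2 were lower, against 2.31% and 2.73% of all compared probes. None of 9 genes for the secretion of Wnt proteins reached 2-fold in any comparison. Their ends were Snx3, a sorting nexin of the retromer, at 0.41, and Porcn, the enzyme that attaches the lipid to Wnt proteins, at -0.35 (log2, OP9-DL against OP9-GFP). Wls, the carrier of Wnt proteins to the surface, read 408.4 (OP9-DL), 483.9 (OP9-GFP) and 479.1 (OP9). Porcn itself read 11.2 (OP9-DL), 14.3 (OP9-GFP) and 21.6 (OP9), just short of 2-fold in OP9-DL against OP9, with a log2 difference of -0.95.

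Between the GFP lines, where 5.04% of all compared probes reached 2-fold, none of 9 comparable probes for other secreted or surface regulators did. Kremen1, a receptor for Dkk1, was the lowest, with 6.6 (OP9-DL), 12.9 (OP9-GFP) and 11.9 (OP9), a log2 difference of -0.97. Rspo3, an R-spondin that strengthens Wnt signals, was the highest, with 39.1 (OP9-DL), 35.1 (OP9-GFP) and 25.8 (OP9). Against the OP9 array Igfbp4, an IGF-binding protein that also inhibits Wnt signalling, stood apart, with 145.9 (OP9-DL), 141.2 (OP9-GFP) and 1318.9 (OP9), a 9.34-fold lower reading in OP9-GFP; it was chosen after its values were seen. Among 11 other receptors and their partners, Tspan12, the tetraspanin that assists Norrin signalling through Fzd4, was the one past 2-fold between the GFP lines. It read 50.5 (OP9-DL), 121.3 (OP9-GFP) and 76.3 (OP9), 2.40-fold lower in OP9-DL than in OP9-GFP. Fzd4 and Tspan12 thus differed in opposite directions on these arrays. Ptk7, a polarity co-receptor, read 7.7 (OP9-DL), 15.3 (OP9-GFP) and 17.7 (OP9), just short of 2-fold between the GFP lines and 2.30-fold lower in OP9-DL than in OP9. Adgra2, a receptor partner for Wnt7 ligands, went the other way, with 35.8 (OP9-DL), 20.2 (OP9-GFP) and 17.6 (OP9), 2.03-fold higher in OP9-DL than in OP9. Ptk7 and Adgra2 were named with their values known. In OP9-DL against OP9 4.33% of all compared probes were higher and 6.92% lower.

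Inside the cell, none of 24 probes for the destruction complex and its transducers, 11 for nuclear factors and 20 for the polarity and calcium branch reached 2-fold in OP9-DL against OP9-GFP, where 5.04% of all compared probes did. In OP9-GFP against OP9, Cxxc5 (2.45-fold), Tle5 (2.38-fold) and Nfatc4 (2.93-fold) were lower, where 6.75% of all compared probes were lower. In OP9-DL against OP9, Csnk1g3 was 2.25-fold higher, and Nfatc1 (2.41-fold) and Nfatc4 (2.84-fold) were lower, against 4.33% and 6.92% of all. Ctnnb1, beta-catenin itself, read 424.5 (OP9-DL), 463.1 (OP9-GFP) and 673.6 (OP9). The ends of these lists were Nkd1 (0.69) and Dvl2 (-0.61), Tle5 (0.62) and Crebbp (-0.70), and Prkca (0.78) and Rac1 (-0.78), as log2 differences in OP9-DL against OP9-GFP. Nkd1 and Dvl2 act on or as Dishevelled, Tle5 and Crebbp are cofactors of transcription, and Prkca and Rac1 are a kinase and a small GTPase. The array reads RNA, so the level or location of the beta-catenin protein was not measured.

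The target genes of beta-catenin gave 1 higher and 1 lower of 24 comparable probes in OP9-DL against OP9-GFP. Mmp7, a matrix metalloprotease known as a target in intestine, read 50.1 (OP9-DL), 10.0 (OP9-GFP) and 12.7 (OP9), 5.01-fold higher in OP9-DL than in OP9-GFP. Ptgs2, cyclooxygenase 2, read 38.4 (OP9-DL), 88.7 (OP9-GFP) and 13.9 (OP9), 2.31-fold lower. The pathway's own components among the targets were dim, blank on some array or within 2-fold. Axin2 had 2.7 (OP9-DL) and 1.8 (OP9) and was blank on the OP9-GFP array. Lef1 had 1.5 (OP9-DL), 4.5 (OP9-GFP) and 2.8 (OP9), and Tcf7 had 3.1, 3.3 and 3.2 in that order. Nkd1, a feedback inhibitor and target, read 50.6 (OP9-DL), 31.3 (OP9-GFP) and 41.2 (OP9), and both ubiquitin ligases that remove Frizzled receptors, Rnf43 and Znrf3, read within 2-fold at 10.8, 11.4 and 11.6 and at 10.4, 11.3 and 10.8.

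In OP9-GFP against OP9, 8 of the 24 target probes were higher and 1 lower, against 4.86% and 6.75% of all compared probes. In OP9-DL against OP9, 8 were higher and 2 lower, against 4.33% and 6.92%, and both comparisons share the OP9 array. The lists were chosen with earlier results of these data known, so the gap to these shares is not independent of the data. The higher ones in OP9-GFP against OP9 were Ptgs2, Ccn1, Tnfrsf11b, Jun, Myc, Plaur, Id2 and Ccn4, and the lower one was Ccn5, all named after their values were seen. Ccn4 lay at the threshold, with 203.6 in OP9-GFP and 101.6 in OP9 cells, 2.004-fold apart. Ccn1, a matricellular protein, read 1217.1 (OP9-DL), 1668.8 (OP9-GFP) and 450.8 (OP9). Tnfrsf11b, the decoy receptor that restrains osteoclasts, read 1252.9 (OP9-DL), 1047.3 (OP9-GFP) and 308.5 (OP9). These genes also answer to serum, stress, YAP or TGF-beta, and Jun and Myc are early genes of growth stimulation, as background; what raised their readings was not tested. Nkd1, Rnf43, Znrf3 and Notum, feedback inhibitors of the pathway, stayed within 2-fold in this comparison. Their log2 differences were -0.40, -0.03, 0.07 and 0.46. The value for Notum is of its compared probe, and its other probe was blank on every array. In OP9-GFP and OP9, Rnf43 read 11.4 and 11.6, Znrf3 11.3 and 10.8, and the compared Notum probe 12.2 and 8.9. These readings lie below the array median of 20. Their bearing on the raised targets was not tested.

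**Figure D5:**
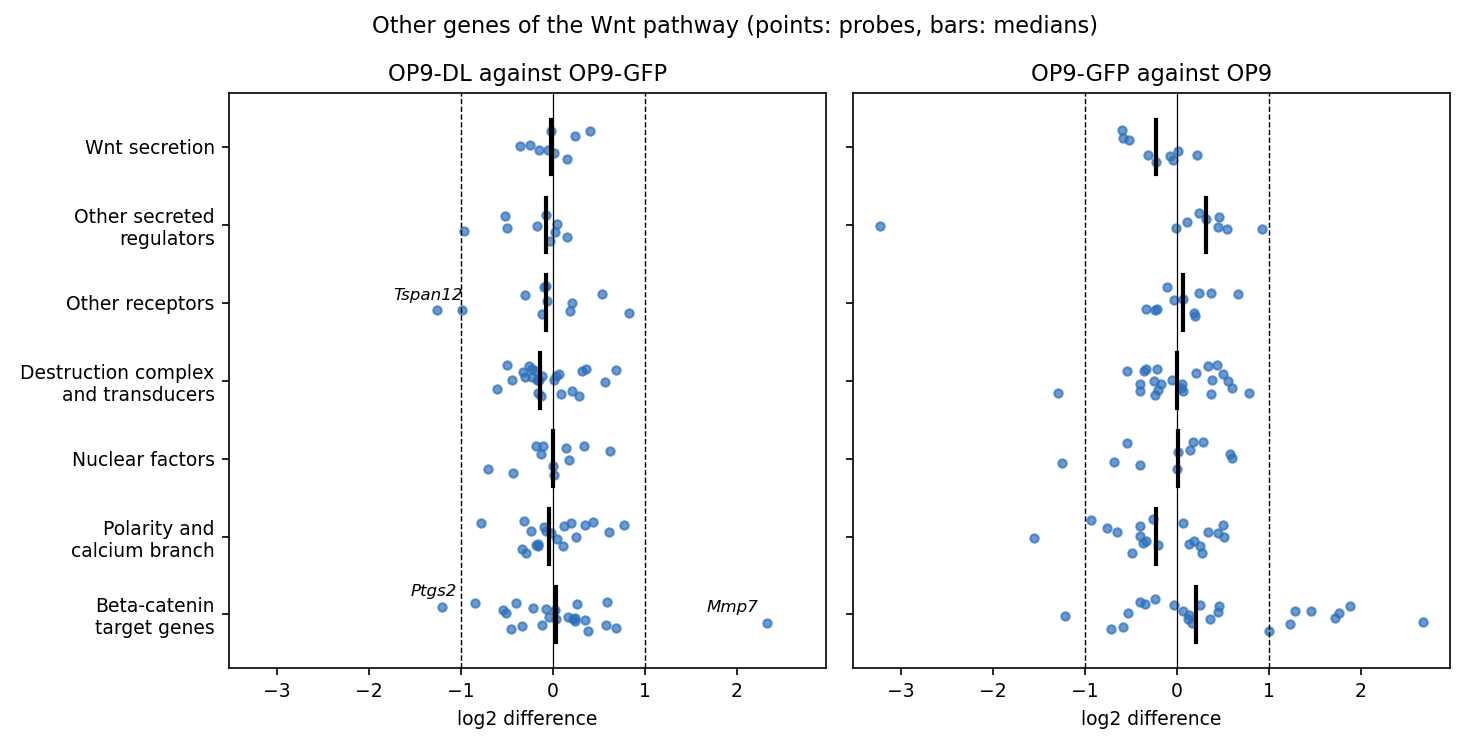
Log2 difference of each compared probe in 7 lists of other Wnt pathway genes, for OP9-DL against OP9-GFP and OP9-GFP against OP9; black bars are list medians and dashed lines mark 2-fold. Only Mmp7, Tspan12 and Ptgs2 pass 2-fold in the first panel, while 8 target probes lie above it in the second. The lists were chosen with earlier results of these data known.

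Markers were read to check the labelled cell type. Vim read 32110.4 (OP9-DL), 25328.1 (OP9-GFP) and 18420.0 (OP9), and Col1a2 read 5145.3 (OP9-DL), 5922.4 (OP9-GFP) and 6612.6 (OP9), while Thy1, Nt5e, Eng and Dcn were below the limit. Of 11 comparable stromal markers Col3a1 and Cxcl12 were 2-fold or more lower in OP9-DL than in OP9-GFP, where 2.73% of all compared probes were lower. Of 5 osteoblast markers 1 was lower, Alpl, with 15.1 (OP9-DL), 101.3 (OP9-GFP) and 91.6 (OP9), and of 8 adipocyte markers 3 were lower, Cfd, Adipoq and Cd36. For these 3 the OP9-GFP array was the highest: Adipoq read 146.7 (OP9-DL), 495.9 (OP9-GFP) and 29.0 (OP9), and in OP9-DL against OP9 it was 5.06-fold and Cfd 2.54-fold higher. Lpl went the other way, 4.39-fold lower in OP9-DL than in OP9, and the median log2 difference of the adipocyte list there was -0.20. Of the stromal markers, Col1a1 was 2.65-fold (OP9-GFP) and 2.07-fold (OP9-DL) higher than in OP9, and Pdgfra 4.82-fold and 6.30-fold lower. Col3a1 was 3.37-fold lower in OP9-DL than in OP9. The other compared stromal markers stayed within 2-fold of OP9. Of all compared probes 4.86% (OP9-GFP) and 4.33% (OP9-DL) were higher than in OP9, and 6.75% and 6.92% lower. Summed intensities over each list in OP9-DL, OP9-GFP and OP9 were 7477.6, 6455.6 and 26540.1 for osteoblast markers, of which Spp1 gave 6877.5, 5610.9 and 26149.4, and 11411.1, 11361.9 and 14043.8 for adipocyte markers, of which Fabp4 gave 8539.4, 8033 and 9435.7. The sums were 909.1, 97.9 and 146.4 for mast cell markers, of which Tpsab1 gave 818.9 on the OP9-DL array, and 270.4, 155.3 and 166.8 for other blood cells, of which Cd48 gave 114.4. Kit had no value on the OP9-DL and OP9-GFP arrays, and Ptprc read 2.8, 2.5 and 2.1. Endothelial markers summed to 45.6, 40.2 and 50.4 and epithelial markers to 272.0, 231.3 and 201.6. The part of these markers in the differences of Sfrp4, Fzd4, Fzd2 and Dkk3 was not tested, and fewer cells of a type and less RNA per cell cannot be told apart in RNA of whole cultures.

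Promoters in the RefSeq table (build GRCm38.p6) were found for 25 of the 39 genes, with 28 start sites. They held a median of 25 CG dinucleotides in 300 bases, from 4 to 58, beside a median of 7 over all 32851 promoters in the table. The core letters of TCF and LEF sites, CTTTGA or TCAAAG on the other strand, were found at 5 of the 28 start sites, 17.9%, and at 16.0% of all promoters of this length. The members' median CG count was thus above that of the table, while their share with these letters was close to it; no test was run. The stretches around each match are shown to place the letters in Fzd1, Wnt5b, Wnt11, Dkk1 and Frzb, with the match in capitals; Dkk1, itself known as a target of beta-catenin, had 2 matches.
Frzb, chr2:80447469-80447508 (-): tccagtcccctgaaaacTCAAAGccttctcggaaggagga
Fzd1, chr5:4758436-4758466 (-): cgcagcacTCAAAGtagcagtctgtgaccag
Wnt5b, chr6:119449435-119449474 (-): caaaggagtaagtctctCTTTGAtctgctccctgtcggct
Wnt11, chr7:98835045-98835084 (+): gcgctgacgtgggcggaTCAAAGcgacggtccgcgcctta
Dkk1, chr19:30549648-30549687 (-): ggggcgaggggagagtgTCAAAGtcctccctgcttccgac
Dkk1, chr19:30549591-30549630 (-): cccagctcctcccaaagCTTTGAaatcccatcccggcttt
None of the 4 compared genes that hold the letters (Fzd1, Wnt5b, Wnt11 and Dkk1) reached 2-fold in any comparison. Most compared members stayed within 2-fold as well, 18 of 20 between the GFP lines and 17 in each comparison with OP9. Fzd4 and Sfrp2 did not hold the letters in the windows printed above, and 16.0% of all promoters held them. Sfrp4, Fzd2 and Dkk3, which did reach 2-fold, were not read for these letters. Fzd4 was thus the only compared member past 2-fold that was read. A link between the letters and the differences was not tested. A match is a run of letters and not a measured binding site.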

How the data were processed

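RNA of 3 OP9 cultures was measured on 1 array each. Each array (Toray) took amplified amino allyl RNA labelled with Cy5 alone, per the labels' protocols. The authors deposited a linear intensity per probe, scaled to a median of 20 on each array, as the values show; the sources used here do not give scanner, background correction or the rule for blanks. No further scaling was applied, and log2 was taken without a constant. Probes with a mean log2 of at least the 25th percentile (2.62) of the 20775 complete probes were compared, and 2-fold or more, an exact 2-fold included, was counted. This limit on the mean can pass a probe through the array where it is high. Probes took their names from the platform's table (16631 with 1 symbol, 6842 without), updated through RefSeq gene names of GRCm38.p6. No array coordinates are given.

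Members and lists were chosen with earlier results of these data known. Values are given for every compared member. From each list the rule named genes past 2-fold in OP9-DL against OP9-GFP or else the highest and lowest, with Ctnnb1, Axin2, Lef1 and Tcf7 (Ccnd1, also in that rule, was not analysed here). Other list genes, among them Wls, Ptk7, Adgra2, Csnk1g3, Cxxc5, Nfatc1, Nfatc4, Rnf43 and Znrf3, were named outside this rule with their values known. Counts of list genes are of probes. The 3 arrays limit the precision. The procedure was tested on simulated arrays with changes far above or far below 2-fold, so calls near the threshold were not tested there. Alternatives were quantile and lowess scaling (span 0.3), other brightness limits, an added constant, filled blanks, 1.5-fold and 3-fold thresholds and the brightest probe per gene. Python 3.11.15, numpy 2.4.6, pandas 2.3.3, statsmodels 0.14.6 and matplotlib 3.10.9 were used.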

Additional observations from a re-analysis of the deposited data

How the results depend on the processing

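No paired analysis was possible because each line had 1 array. The number of members compared, 20, was 30 without a limit on dim probes, 22 with blanks set to the lowest intensity and 9 with a limit at the 50th percentile. The count of members past 2-fold in OP9-DL against OP9-GFP, 2, was 1 with quantile scaling, 1 with lowess scaling, 1 with a constant of 2 added, 1 at a 3-fold threshold, 4 without the limit (Fzd9 and Sfrp5 added) and 0 with the limit at the 50th percentile, where Fzd4 and Sfrp4 were no longer compared. Fzd4 lost its call there with log2 differences of 0.998 (quantile), 0.978 (lowess) and 0.882 (constant). The count in OP9-GFP against OP9, 3, was 1 with the limit at the 50th percentile, 5 at 1.5-fold and 0 at 3-fold, and in OP9-DL against OP9, 3, it was 6 at 1.5-fold and 1 at 3-fold. For the 7 pathway lists, the 3 probes past 2-fold in OP9-DL against OP9-GFP became 5 with quantile scaling, 5 without the limit, 15 at 1.5-fold and 1 at 3-fold; the 13 in OP9-GFP against OP9 became 24 and 5 at these thresholds, and the 16 in OP9-DL against OP9 became 33 and 6. These pathway counts are out of 104 compared probes. Between the GFP lines, 16.2% of all compared probes reached 1.5-fold and 1.76% reached 3-fold. The shares were 29.4% and 3.57% for OP9-GFP against OP9, and 29.0% and 4.22% for OP9-DL against OP9. With the limit at the 50th percentile the members' median was -0.31 in OP9-DL against OP9-GFP and -0.34 in OP9-DL against OP9. Signs turned for Fzd2 in OP9-DL against OP9-GFP (0.0086 with quantile and 0.012 with lowess scaling) and for Wnt11 in OP9-GFP against OP9 (0.0088 with quantile scaling), both near 0. Fewer or more probes compared, or the threshold itself, set the changes under other limits and thresholds; for the others the cause was not tested.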

Other observations

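Several Wnt genes lie side by side in the mouse genome, and in the RefSeq gene order of GRCm38.p6 4 pairs of members are neighbours among protein-coding genes: Wnt6 and Wnt10a, Wnt3a and Wnt9a, Wnt9b and Wnt3, and Wnt10b and Wnt1. In 3 of the 4 pairs at least 1 gene could be compared, and in the pair of Wnt9b and Wnt3 both. On the log2 scale Wnt3 differed by -0.16 in OP9-DL against OP9-GFP and by 0.57 in OP9-GFP against OP9, and Wnt9b by -0.04 and -0.15. Neither gene of this pair reached 2-fold. In the pair of Wnt3a and Wnt9a both were dim or blank, with Wnt3a at 3.7 (OP9-DL) and 2.5 (OP9-GFP), without a value on the OP9 array, and Wnt9a at 6.3 (OP9-DL), 4.2 (OP9-GFP) and 6.4 (OP9).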
